A study of Rattus norvegicus with 2 samples.

Results

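Caveolar genes were described in the postnatal rat cochlear duct, namely the caveolins Cav1 and Cav2 and the cavins Cavin1, Cavin2 and Cavin3. They were taken by symbol, as 5 of the 32623 gene rows of the deposited matrices. Their identifiers were ENSRNOG00000056836 for Cav1, ENSRNOG00000057713 for Cav2, ENSRNOG00000019778 for Cavin1, ENSRNOG00000025895 for Cavin2 and ENSRNOG00000017914 for Cavin3. The cells came from Sprague-Dawley rats with no treatment or mutation named, and 1 droplet library of 3′ cDNA was made at postnatal day 1 (P1) and 1 at postnatal day 7 (P7), each from pooled animals. The study set out to follow the greater epithelial ridge, a transient epithelium beside the hair cells, from P1 to P7. With 1 library per age, age and library cannot be told apart, the ages were compared without a test or p-value. Levels are counts of unique molecular identifiers (UMIs, 1 per captured transcript) scaled to a total of 1000000 UMIs in the same cells (CPM). In 3′ libraries a transcript gives the same count whatever its length, but capture can differ between genes, so levels of different genes were not read as numbers of molecules. Intervals in brackets are exact at the 95% level and cover counting error only.

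The P1 library held 114285848 UMIs in 14068 barcodes and the P7 library 101264868 UMIs in 14501 barcodes, and 60 barcodes occurred in both. After quality limits 12779 cells remained at P1 and 12581 at P7, with median depths of 6565 and 6878 UMIs. The cells fell into 27 clusters, which were named from lists of marker genes with the ending -like, and the 5 genes had no part in the clustering. Endothelium-like cells (cluster 18) numbered 166 at P1 and 187 at P7. Mural-like cells (clusters 14 and 25), the pericytes and smooth muscle around vessels, numbered 330 and 288. Mesenchyme named here for Aldh1a2 (clusters 1 and 24) held 1366 and 843 cells, and mesenchyme named for Ccn3 (clusters 8 and 22) held 1158 and 463. The small cluster 22 made up 89 of the Ccn3 class at P1 and 101 at P7. GEO's labels call the material greater epithelial ridge cells, but epithelium-like cells made up only 2.11% of kept cells at P1 and 1.69% at P7. The study considered its clusters high in Aldh1a2 and Scara3, and in Ccn3 and Irx3, to be subtypes of ridge cells. It also reported Scara3 and Ccn3 transcripts in the ridge region by in situ hybridization. Cells with these markers are called mesenchyme here.

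The class names were checked against their markers. Of 15 endothelial markers, 14 were found in at least 10% of the endothelium-like cells at each age, and together they reached 7208 CPM at P1 and 9023 CPM at P7, led by Ramp2. In mural-like cells 12 of 13 mural markers were found, at a sum of 8755 and 9940 CPM, led by Rgs5. The Aldh1a2 mesenchyme-like cells held all 6 of their markers and the Ccn3 mesenchyme-like cells all 4. Emcn, an endothelial sialomucin, was also high in both mesenchymes, at 809 and 1507 CPM in Aldh1a2 mesenchyme-like and 881 and 868 CPM in Ccn3 mesenchyme-like cells. It made up most of the summed endothelial markers there, which were 1135 and 1992 CPM in the first and 1157 and 1430 CPM in the second. Ramp2, a partner of the adrenomedullin receptor, was next, at 240 and 339 CPM in the first and 183 and 376.5 CPM in the second, and Eng, a co-receptor of the TGF-beta family, stood at up to 99.8 CPM there. Flt1, a receptor for vascular endothelial growth factor, stood at 381 and 334 CPM in endothelium-like cells against 0.775 and 0.682 CPM in Aldh1a2 mesenchyme-like and 0.324 and 0.310 CPM in Ccn3 mesenchyme-like cells. Plvap, the protein of fenestral and caveolar diaphragms, stood at 1230 and 1559 CPM in endothelium-like cells, at 2.33 and 4.09 CPM in Aldh1a2 mesenchyme-like and at 13.0 and 50.8 CPM in Ccn3 mesenchyme-like cells. Robo4 had no UMI in Aldh1a2 mesenchyme-like cells, but it had none in endothelium-like cells at P7 either. Scrublet called 13.9% and 16.0% of endothelium-like cells, 12.4% and 13.9% of mural-like cells and 10.2% and 13.4% of Aldh1a2 mesenchyme-like cells as doublets, against 0.60% and 1.30% of Ccn3 mesenchyme-like cells. In the small cluster 24 of the Aldh1a2 class 98 of 119 cells were called doublets, and the glial list had the next highest score there. Doublets were kept, and values without them are given where they differ.

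Caveolae are small flask-shaped pits of the plasma membrane, frequent in endothelium, smooth muscle, fibroblasts and fat cells. Caveolins are hairpin-shaped membrane proteins that assemble into the coat of the pit. Cavins are cytosolic proteins that bind this coat, and Cavin1 is required for caveolae to form. In endothelium, caveolae carry signalling proteins and take part in transcytosis, and they flatten when the membrane is stretched.

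In the RefSeq annotation of the assembly GRCr8, Cav2 and Cav1 lie next to each other on chromosome 4, between Tes and Met. Cavin1 lies between Stat3 and Atp6v0a1 on chromosome 10, Cavin2 beside Tmeff2 on chromosome 9, and Cavin3 between Cckbr and Smpd1 on chromosome 1. The set of RefSeq promoter sequences used here held 5 for 4 of the 5 genes, Cav1 having a pair of starts, and none for Cavin3. The 250 bases before the start are printed for the neighbours Cav1 and Cav2, which had the most alike patterns across clusters, for Cavin2, whose pattern was next to theirs, and for Cavin1 as a contrast. They lie at chr4:46606288-46606537 (plus strand), chr4:46582431-46582680 (plus strand), chr9:57806025-57806274 (minus strand) and chr10:86396384-86396633 (minus strand). Capitals mark matches, on either strand, to 3 short motifs of promoters, none of which overlapped another. The first was GGGCGG, which Sp1 is known to bind. The second was CCAAT, bound by the factor NF-Y, and the last was TATAAA, found where the general factors assemble.
Cav1: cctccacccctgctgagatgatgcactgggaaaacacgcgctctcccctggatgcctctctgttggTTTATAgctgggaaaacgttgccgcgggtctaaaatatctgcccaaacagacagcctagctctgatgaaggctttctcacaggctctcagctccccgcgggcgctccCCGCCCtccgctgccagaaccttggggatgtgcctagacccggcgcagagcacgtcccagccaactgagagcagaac
Cav2: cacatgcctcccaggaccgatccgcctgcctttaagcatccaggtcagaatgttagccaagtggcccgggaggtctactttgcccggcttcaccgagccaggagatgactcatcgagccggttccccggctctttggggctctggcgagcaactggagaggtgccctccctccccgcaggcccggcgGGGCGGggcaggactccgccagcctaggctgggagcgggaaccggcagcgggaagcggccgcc
Cavin2: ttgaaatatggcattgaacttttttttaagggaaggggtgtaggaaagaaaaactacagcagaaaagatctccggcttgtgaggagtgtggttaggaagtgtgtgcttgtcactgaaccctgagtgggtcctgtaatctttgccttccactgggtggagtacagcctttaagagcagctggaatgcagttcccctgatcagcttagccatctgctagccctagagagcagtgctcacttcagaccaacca
Cavin1: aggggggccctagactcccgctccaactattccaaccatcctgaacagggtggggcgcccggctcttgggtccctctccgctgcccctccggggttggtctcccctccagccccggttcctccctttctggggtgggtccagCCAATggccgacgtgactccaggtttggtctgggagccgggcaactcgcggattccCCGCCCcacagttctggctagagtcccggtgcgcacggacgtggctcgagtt
The Cav1 window printed held TATAAA 184 bases and GGGCGG 77 bases before the start, whereas that of the other Cav1 start, at chr4:46607722-46607971 with a GC content of 65.6%, held none of the motifs. Reads of 3′ ends do not tell which start was used. The Cav2 window held GGGCGG 63 bases before it. The Cavin1 window held CCAAT 108 bases and GGGCGG 52 bases before the start, and none of these letters stood in the Cavin2 window. Its GC content was 47.6%, against 60% for the Cav1 window printed, 67.2% for Cavin1 and 68.4% for Cav2. Among 33469 windows of the same length, 30.5% held GGGCGG, 34.0% CCAAT and 12.9% TATAAA on either strand. The CArG box, the site of serum response factor, matched 1.5% of windows and none of those of the 4 genes. A match is a description of the letters and not of a bound site.

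Taken over all kept cells, the 5 genes moved in different directions between the libraries. Cav1 went from 166.75 CPM at P1 to 72.3 CPM at P7, a log2 ratio of -1.21, and Cavin2 from 95.3 to 48.6 CPM (-0.97). Cav2 went from 17.1 to 13.7 CPM (-0.32), Cavin1 from 61.6 to 68.1 CPM (0.14) and Cavin3 from 122 to 197 CPM (0.69). The share of cells with a Cav1 UMI was 24.7% at P1 and 12.9% at P7, and that with a Cavin3 UMI 47.9% and 63.3%. These sums mix classes whose share of the cells differed between the libraries. The Aldh1a2 and Ccn3 mesenchyme-like cells together made up 19.8% of kept cells at P1 and 10.4% at P7. They held 78.7% of all Cav1 UMIs at P1 and 68.4% at P7, and 72.4% and 66.7% of those of Cavin2. The share of cells recovered per class can follow dissociation as well as the tissue.

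Where the UMIs of each gene lay set the caveolins and Cavin2 apart from Cavin1 and Cavin3. Endothelium-like, mural-like and both kinds of mesenchyme-like cells, 23.6% of the cells at P1, held 86.8% of the Cav1, 84.1% of the Cav2 and 82.1% of the Cavin2 UMIs. The same cells held 41.3% of the Cavin1 and 30.5% of the Cavin3 UMIs. At P7 they were 14.2% of the cells and held 86.7% of Cav1, 80.5% of Cav2, 77.3% of Cavin2, 33.4% of Cavin1 and 19.7% of Cavin3. Cavin1 and Cavin3 were thus counted mainly in other classes, such as interstitial fibroblast-like cells. Cavin3 stood there at 157 and 218 CPM and Cav1 at 17.6 and 7.33 CPM. The 4 classes did not contribute alike. Ccn3 mesenchyme-like cells alone held 55.8% of Cav1 and 46.0% of Cav2 UMIs at P1, and 35.3% and 28.8% at P7. Aldh1a2 mesenchyme-like cells held 51.7% and 53.9% of those of Cavin2. Mural-like cells, 2.58% and 2.29% of the cells, held 1.77% and 2.23% of Cav1 and 0.493% and 1.10% of Cavin2.

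**Figure D1:**
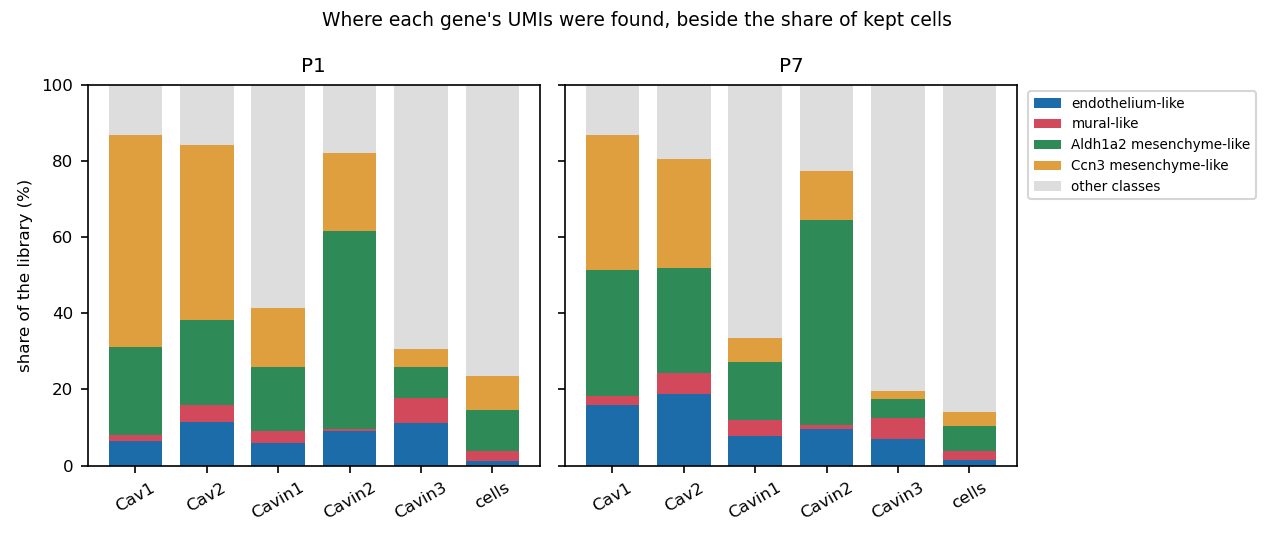
Share of each library (y axis, in percent) that lay in 4 cell classes and in all other kept cells, for the cells themselves and for the UMIs of each of the 5 genes, at P1 and P7. Most UMIs of Cav1, Cav2 and Cavin2 lie in the 4 classes, which hold 23.6% of the cells at P1 and 14.2% at P7.

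Cav1, the main caveolin outside striated muscle, was highest in the Ccn3 mesenchyme-like cells as clustered here. It stood there at 987 CPM [966 to 1007] at P1 and 736 CPM [707 to 766] at P7. Endothelium-like cells held 568 CPM [534 to 604] and 659 CPM [620 to 699]. Aldh1a2 mesenchyme-like cells followed with 322 CPM [312 to 333] and 305 CPM [292 to 318], and mural-like cells with 152 CPM [135 to 170] and 77.8 CPM [65.9 to 91.3]. The order of these classes was the same at both ages, and the intervals of neighbours in it did not overlap. Among the other classes Cav1 lay between 3.05 CPM in hair cell-like cells and 90.5 CPM in dividing cells at P1, and between 2.44 CPM in neuron-like and 46.5 CPM in macrophage-like cells at P7. Each lower end rested on 1 UMI, with intervals of 0.077 to 17.0 CPM and 0.062 to 13.6 CPM, so neither is a firm level. Within the Ccn3 class the larger cluster 8 held 1037 and 944 CPM, whereas the small cluster 22 held 140 and 50.5 CPM. The first place thus rested on cluster 8 and on its division from the Aldh1a2 class. With the 2 mesenchymes together Cav1 stood at 617 and 437 CPM, which at P7 was below endothelium-like cells, and at a coarser resolution of 0.4 only 89 and 102 cells bore the Ccn3 name.

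Cav2, which needs Cav1 to reach the cell surface, had the fewest UMIs of the 5 genes in each library. It stood at 105 CPM [90.3 to 121] at P1 and 146 CPM [128 to 166] at P7 in endothelium-like cells. Ccn3 mesenchyme-like cells had 83.4 CPM [77.6 to 89.5] and 113 CPM [102 to 126], just below the endothelium-like interval at each age. Their main cluster 8 held 87.6 CPM [81.5 to 94.0] and 147 CPM [132 to 163], which overlapped the endothelium-like intervals, so the order of the pair is not firm. Mural-like cells with 38.8 and 35.8 CPM and Aldh1a2 mesenchyme-like cells with 32.1 and 47.9 CPM came next. In interstitial fibroblast-like cells Cav2 was at 1.5 and 1.26 CPM.

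Cavin1, the cavin without which caveolae are lost, was spread over most classes. It stood at 196 CPM [176 to 217] and 301 CPM [275 to 329] in endothelium-like cells. The values were 99.6 and 135 CPM in mural-like, 87.3 and 131 CPM in Aldh1a2 mesenchyme-like and 101 and 124 CPM in Ccn3 mesenchyme-like cells, whose intervals overlapped at P7. Unnamed clusters held 68.7 and 71.0 CPM and interstitial fibroblast-like cells 63.9 and 73.7 CPM. The lowest classes were macrophage-like cells at 4.60 and 19.4 CPM, neuron-like cells at 12.5 and 19.5 CPM and glia-like cells at 25.2 and 26.5 CPM. At P7 the intervals of these classes overlapped.

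Cavin2, which shapes caveolar membrane, had another order. At P1 endothelium-like cells with 470 CPM [439 to 502] and Aldh1a2 mesenchyme-like cells with 416 CPM [404 to 428] were the highest. Their order is not firm, since endothelium-like cells had 434 CPM without the 1 cell richest in Cavin2. At an equal depth of 2000 UMIs their share of cells with a Cavin2 UMI was smaller, 40.9% against 50.9%. At 4000 UMIs it was larger, 71.5% against 67.9%. At P7 Aldh1a2 mesenchyme-like cells with 333 CPM [320 to 347] were above endothelium-like cells with 262 CPM [238 to 288]. Ccn3 mesenchyme-like cells had 208 and 179 CPM. Mural-like cells had 24.1 CPM [17.7 to 32.2] and 25.9 CPM [19.3 to 34.2], and these intervals overlapped those of macrophage-like cells at 12.5 CPM [7.52 to 19.5] and 16.0 CPM [10.1 to 23.9]. The study itself names Cavin2 for its cluster with Clu, Gsn and Itga8, genes that are markers of the Aldh1a2 class here, so its place in that class is not independent of earlier work on these libraries.

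Cavin3, which binds Cavin1 and protein kinase C delta, was highest in the vessel classes. Endothelium-like cells had 732 CPM [693 to 772] and 792 CPM [749 to 836], and mural-like cells 405 CPM [377 to 434] and 518 CPM [487 to 551]. Neither mesenchyme shared this: the values were 84.3 and 126 CPM in Aldh1a2 mesenchyme-like and 61.2 and 120 CPM in Ccn3 mesenchyme-like cells. These lay below dividing cells at 147 and 223 CPM and epithelium-like cells at 116 and 208 CPM. Single clusters could differ from their class. Cluster 23 of the glia-like class held 480 CPM [442 to 520] at P7, which overlapped the mural-like interval.

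**Figure D2:**
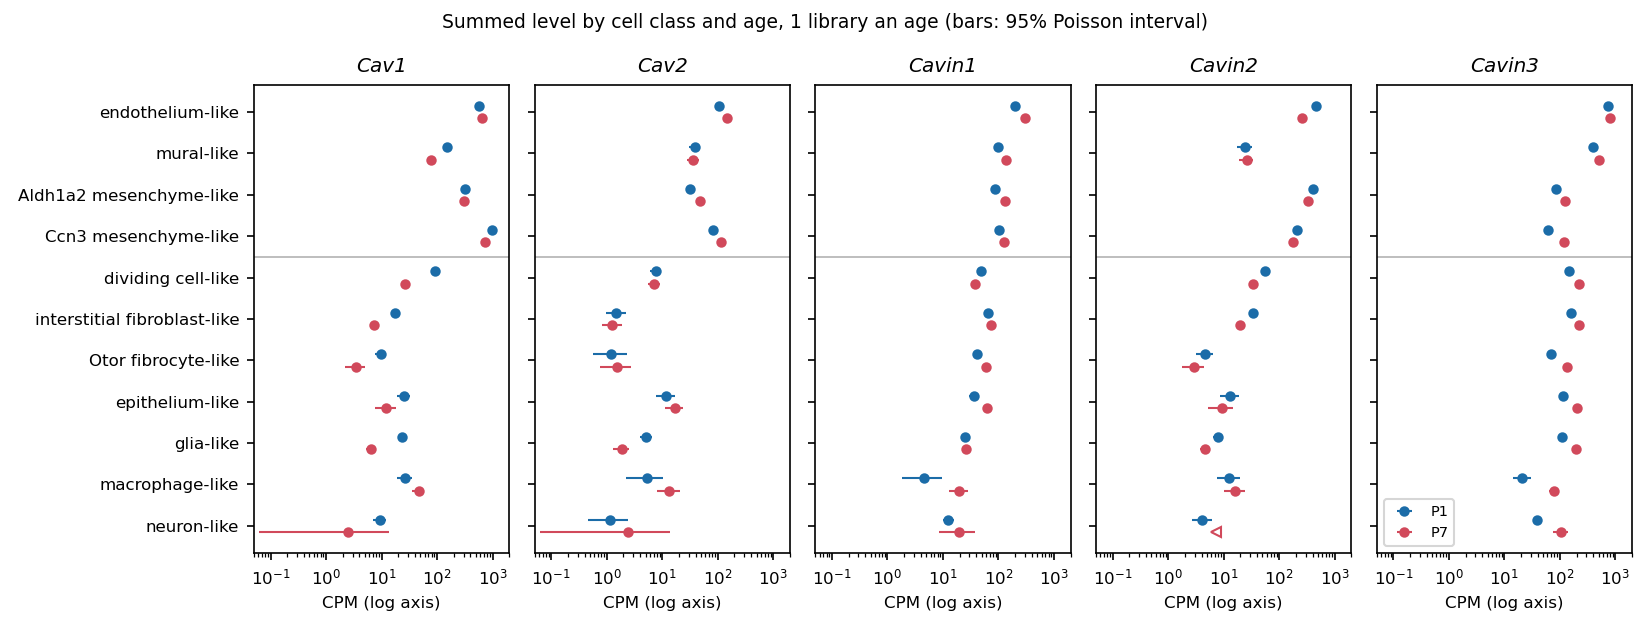
Level of each gene (CPM, log axis) in each named cell class with at least 50 cells, at P1 and P7, with exact 95% Poisson intervals for counting error as bars. Unnamed clusters are not drawn. An open triangle marks a class with no UMI at its limit of 3 counts. Cav1 is highest in Ccn3 mesenchyme-like cells, Cavin2 in endothelium-like and Aldh1a2 mesenchyme-like cells, and Cavin3 in endothelium-like and mural-like cells.

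Each class was then set against all other kept cells of the same library, on the scale of log2(CPM + 5). Of all genes with at least 200 UMIs, 2.17% at P1 and 2.34% at P7 were at least 4 times higher in endothelium-like cells. Of the 5 genes 3 passed that mark at P1, Cavin3 at 6.37 times, Cav2 at 5.36 times and Cavin2 at 5.10 times, with Cav1 at 3.49 and Cavin1 at 3.14 times just below it. At P7 all 5 passed it, Cav1 at 9.93, Cav2 at 9.27, Cavin2 at 5.37, Cavin1 at 4.45 and Cavin3 at 4.16 times. The background was 0.264% and 0.445% in Ccn3 mesenchyme-like cells, where Cav1 was 11.5 and 13.9 times and Cav2 5.82 and 7.85 times higher. It was 0.22% and 0.463% in Aldh1a2 mesenchyme-like cells, where Cavin2 was 7.37 and 11.5 times and, at P7 only, Cav1 5.39 times higher. None of the 5 passed the mark in mural-like cells, where 1.51% and 1.37% of genes did, and the nearest was Cavin3 at 3.37 and 2.68 times. The other cells hold the remaining classes of this comparison, so each value also depends on the level of that gene in them.

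Detection in single cells was compared at equal depth. Cells were thinned to 2000 UMIs each, and shallower cells were left out. At that depth a Cav1 UMI was found in 60.4% of 149 endothelium-like cells at P1 and 58.7% of 155 at P7. The shares were 71.4% and 58.3% in Ccn3 mesenchyme-like, 36.9% and 34.8% in Aldh1a2 mesenchyme-like and 23.9% and 12.9% in mural-like cells. Among cells outside these classes, interstitial fibroblast-like cells gave 2.75% of 2181 and 0.935% of 2568 cells, with medians of 6843 and 7035.5 UMIs before thinning. Macrophage-like cells gave 3.37% of 178 and 6.55% of 168 cells, with medians of 7180 and 7060 UMIs, and 13.7% and 14.8% of them were called doublets. Unthinned, 83.1% and 83.4% of endothelium-like cells and 88.9% and 71.7% of Ccn3 mesenchyme-like cells had a Cav1 UMI.

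A Cavin3 UMI was found in 73.8% and 74.8% of thinned endothelium-like cells and 51.9% and 66.1% of mural-like cells, against 24.5% and 34.6% of interstitial fibroblast-like and 2.25% and 10.7% of macrophage-like cells. Cavin2 was found in 50.9% and 42.0% of Aldh1a2 mesenchyme-like cells and in 40.9% [33.0 to 49.3] and 34.8% [27.4 to 42.9] of endothelium-like cells. In mural-like cells its share was 4.35% [2.40 to 7.19] and 5.54% [3.13 to 8.97], which was not set apart from the 5.78% and 4.13% of interstitial fibroblast-like cells. Cav2 was found in 16.8% and 24.5% of endothelium-like and 14.6% and 17.3% of Ccn3 mesenchyme-like cells. Cavin1 reached 36.9% and 43.9% of endothelium-like cells and between 15.5% and 25.1% in the other 3 classes. For Cavin2 the order turned at a depth of 4000 UMIs, with 71.5% and 60.7% of endothelium-like against 67.9% and 59.5% of Aldh1a2 mesenchyme-like cells.

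**Figure D3:**
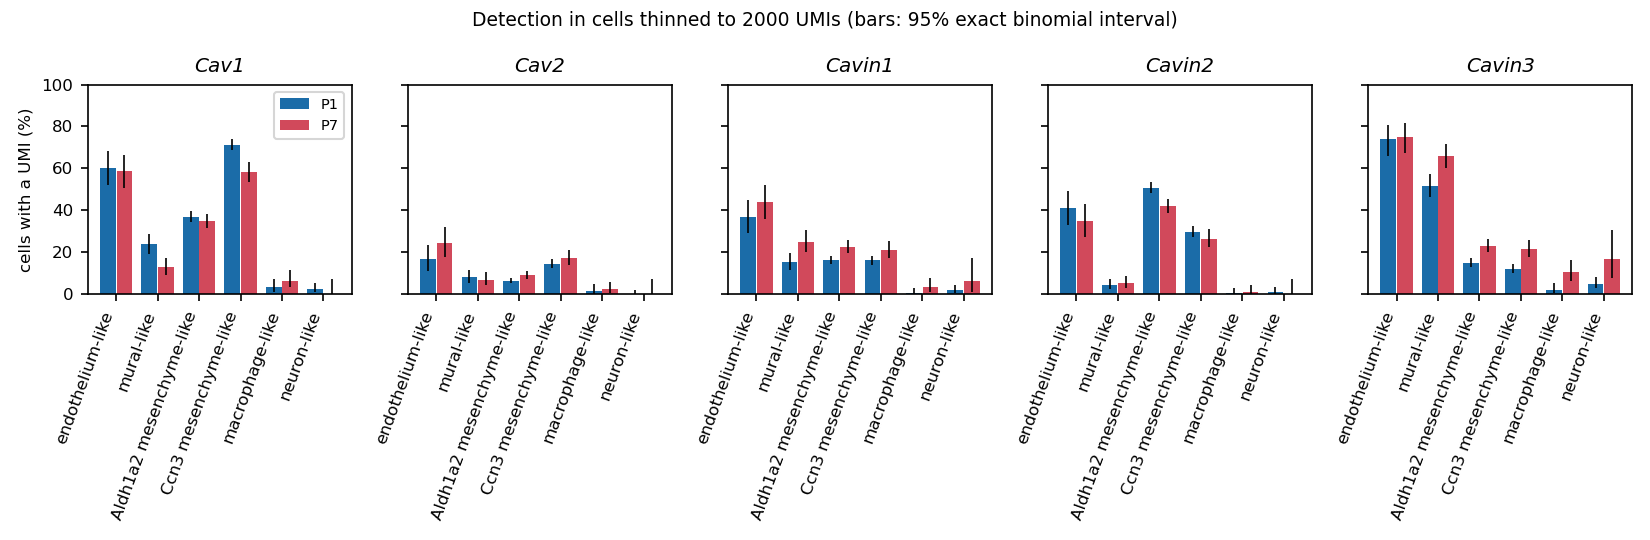
Share of cells with at least 1 UMI of each gene after thinning to 2000 UMIs (y axis, in percent) in 6 classes at P1 and P7, with exact 95% binomial intervals. Macrophage-like and neuron-like cells, also shown, lie below the vessel and mesenchyme classes for Cav1 and Cav2.

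Levels also differed widely between cells of a class. In endothelium-like cells the median was 4 Cav1 UMIs per cell at each age and the highest cell had 34. In Ccn3 mesenchyme-like cells the median was 5 at P1 and 3 at P7, with a highest cell of 61 and 35 UMIs. One endothelium-like cell at P1 held 77 Cavin2 UMIs among its 25852 UMIs, which was 8.97% of all Cavin2 UMIs of the class, and it was not called a doublet. Without it Cavin2 in that class was 434 CPM.

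The genes were also counted per cell. After thinning, endothelium-like cells held a UMI of 2.29 of the 5 genes on average at P1 and 2.37 at P7, and 2.68% and 5.81% of them held none. Ccn3 mesenchyme-like cells held 1.44 and 1.45, Aldh1a2 mesenchyme-like cells 1.26 and 1.32 and mural-like cells 1.04 and 1.17. In macrophage-like cells the mean was 0.0843 and 0.244, and 93.3% and 80.4% held none. Cav1 and Cav2 UMIs were found in the same cell in 12.3% of Ccn3 mesenchyme-like cells at P1 and 15.2% at P7, where the product of the single shares was 10.4% and 10.1%. In endothelium-like cells these shares were 8.72% and 15.5% against products of 10.1% and 14.4%. Cells of a class can differ in type and state, so a share above the product is a description only.

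The balance between the 5 genes differed between the classes. In endothelium-like cells 1.29 Cavin3 UMIs were counted per Cav1 UMI at P1 and 1.2 at P7, and in mural-like cells 2.67 and 6.66. Ccn3 mesenchyme-like cells had 0.062 and 0.163 and Aldh1a2 mesenchyme-like cells 0.261 and 0.415. For Cavin2 the order was another, with 1.29 and 1.09 per Cav1 UMI in Aldh1a2 mesenchyme-like cells, 0.827 and 0.398 in endothelium-like, 0.211 and 0.243 in Ccn3 mesenchyme-like and 0.159 and 0.333 in mural-like cells. Cavin2 per Cavin3 UMI was 4.94 and 2.64 in Aldh1a2 mesenchyme-like cells and 0.0596 and 0.0501 in mural-like cells. Capture differs between genes, so such ratios were compared between classes and not read as the makeup of a coat.

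**Figure D4:**
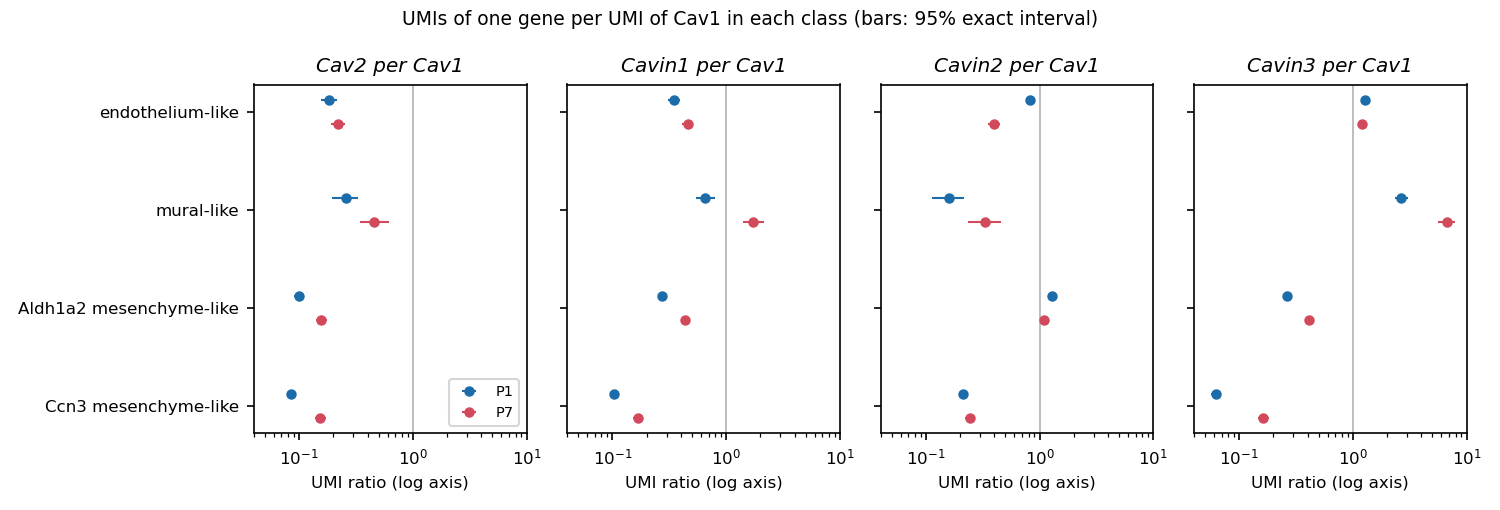
UMIs of each other gene per Cav1 UMI (log axis) in 4 classes at P1 and P7, with exact 95% intervals. Cavin3 exceeds Cav1 in endothelium-like and mural-like cells and lies below it in both mesenchymes, and Cavin2 exceeds Cav1 in Aldh1a2 mesenchyme-like cells.

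From P1 to P7 the 5 genes did not move together in the vessel classes. Of all genes with at least 50 UMIs in endothelium-like cells, 21.3% were at least 1.5 times higher and 13.7% at least 1.5 times lower at P7, with a median log2 ratio of 0.10. Cavin1 was among the first, with a log2 ratio of 0.62 [0.42 to 0.82]. Cavin2 was among the second at -0.84 [-1.01 to -0.67], from 470 to 262 CPM. Cav2 at 0.48 [0.20 to 0.76], Cav1 at 0.21 [0.09 to 0.34] and Cavin3 at 0.11 [0.00 to 0.23] stayed under the mark. After thinning Cav1 was at 0.03. In thinned cells with a Plvap UMI it went from 578 CPM [486 to 682] in 122 cells to 655 CPM [559 to 763] in 126, and in those without from 611 CPM [421 to 858] in 27 cells to 345 CPM [211 to 533] in 29, with overlapping intervals in both. Cavin1 lay under the mark in several settings, such as 0.51 after thinning and 0.54 with classes from marker UMIs. The Cavin2 ratio was -0.77 without the cell with the most UMIs in each library and -0.58 after thinning, which is just under the mark, and its thinned shares overlapped in their intervals. Per Cavin1 UMI, 2.40 Cavin2 UMIs were counted at P1 and 0.870 at P7. In the same cells the summed glial markers were 55.3 CPM at P1 and 465 CPM at P7, and the mural markers 210 and 617 CPM, led by Mcam. Their part in these ratios was not tested.

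In mural-like cells Cav1 was past the mark, at -0.96 [-1.26 to -0.67], where 18.6% of genes were at least 1.5 times higher and 13.4% lower. Cavin1 stood at 0.44 [0.16 to 0.72], but at 0.86, past the mark, after thinning, and Cavin3 at 0.36 [0.22 to 0.49]. Cav2 at -0.12 [-0.61 to 0.38] had an interval that included 0. Cavin2 rested on 46 and 50 UMIs and had no stable value, at 0.11 [-0.50 to 0.72] as counted, 0.73 without doublets and 0.82 with classes from marker UMIs. The cells richest in it were called doublets and held 23.9% of its UMIs at P1 and 14% at P7. Cav1 was also lower in thinned mural-like cells without a UMI of Myh11, a smooth muscle myosin, at 156 CPM in 305 cells at P1 and 87.4 CPM in 269 cells at P7, and Cavin1 was higher in them, at 82.0 and 164 CPM. Cav1 went from 151 to 88.8 CPM in the larger cluster 14 and from 155 to 24.4 CPM in cluster 25. The lower level was not limited to mural-like cells. Outside the 4 classes Cav1 was lower at P7 in each class found at both ages except macrophage-like cells, at 26.3 and 46.5 CPM. Glia-like cells had 23.8 and 6.40 CPM, dividing cells 90.5 and 26.0 CPM and interstitial fibroblast-like cells 17.6 and 7.33 CPM. The dividing class also changed its mix of clusters. Its cluster 15 had 191 and 120 CPM in 368 and 125 cells. Cluster 10 had 21.1 and 10.3 CPM in 253 and 542 cells, and cluster 13 21.4 and 4.97 CPM in 319 and 252. The summed glial markers in mural-like cells were 94.9 and 659 CPM, and their part in these ratios was not tested.

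The ratios in the mesenchyme depended on how its cells were divided. As clustered here, Cav1 had a log2 ratio of -0.08 [-0.16 to -0.00] in Aldh1a2 mesenchyme-like and -0.42 in Ccn3 mesenchyme-like cells. In the Ccn3 class this ratio ranged from -1.88, with the libraries merged, to -0.14, without the small clusters. Cavin2 had -0.32 and -0.22, Cav2 0.58 and 0.44, Cavin1 0.59 and 0.29, and Cavin3 0.58 and 0.97 [0.78 to 1.16]. With the 2 mesenchymes together Cav1 went from 617 to 437 CPM, a log2 ratio of -0.50 [-0.55 to -0.45], and Cavin3 from 74.0 to 124 CPM (0.75). The joined Cav1 ratio was -0.91 with each library on its own and -1.30 with classes from marker UMIs, so its size was not firm either. Of all genes, 26.3% were at least 1.5 times higher and 15.3% lower at P7 in Aldh1a2 mesenchyme-like cells, and 24.6% and 16.7% in Ccn3 mesenchyme-like cells. Cavin1 in the first, at 1.5 times higher, and Cavin3 in the second, at 1.95 times, passed that mark, and Cavin3 in the first lay just under it. Neither call held in every setting, with Cavin3 in the second at 0.23 at a resolution of 0.4 and Cavin1 in the first at 0.52 after thinning. At that resolution far fewer cells bore the Ccn3 name, so the 0.23 is for another set of cells. As clustered here, Cavin3 went from 56.8 to 108 CPM in cluster 8 and from 134 to 158 CPM in the small cluster 22. Cavin3 was higher at P7 in each class found at both ages. Glia-like cells, for example, had 110 and 194 CPM and macrophage-like cells 21.0 and 77.0 CPM. Where other settings drew the border elsewhere, Cav1 and Cavin2 in Aldh1a2 mesenchyme-like cells and Cav2, Cavin1 and Cavin2 in Ccn3 mesenchyme-like cells changed sign. The summed glial markers in Aldh1a2 mesenchyme-like cells were 123 CPM at P1 and 1250 CPM at P7, and their part in these ratios was not tested.

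**Figure D5:**
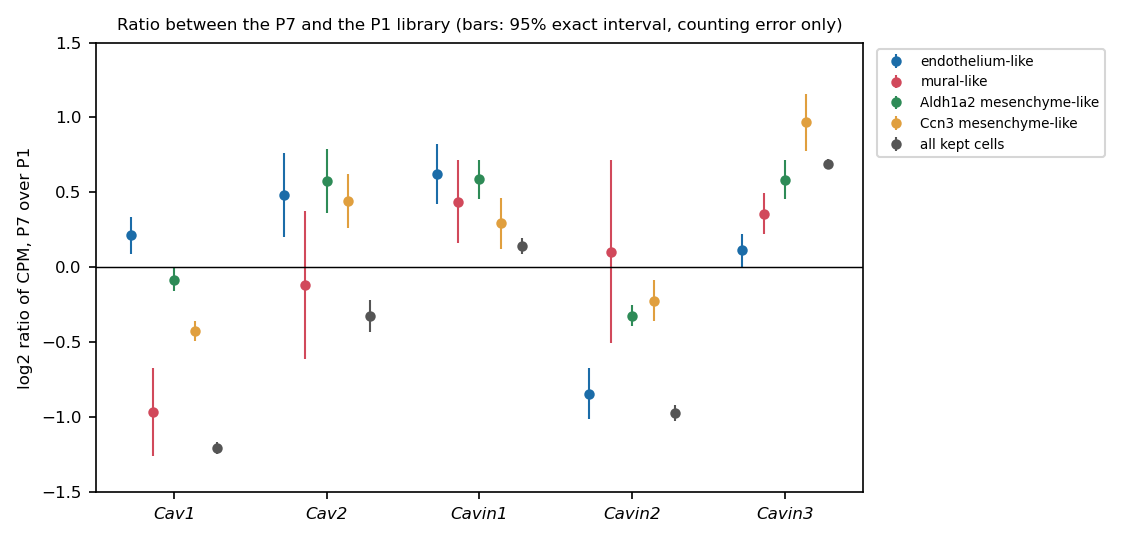
Log2 ratio of CPM at P7 over P1 for each gene (y axis) in 4 classes and in all kept cells, with exact 95% intervals for counting error. Cav1 and Cavin2 lie below 0 in all kept cells, whereas Cav1 in endothelium-like cells lies slightly above 0 and in mural-like cells below it.

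Other genes that act at caveolae were followed from a list of 16. Of 10 with at least 200 UMIs at both ages, 3 were at least 4 times higher in endothelium-like cells than in the other cells at each age, namely Ehd2, Ehd4 and Plvap, where 2.17% and 2.34% of all genes were. Ehd3 and Pacsin1 reached 200 UMIs at P1 only and Nos3 and Mfsd2a at P7 only, so these were left out of the count. Ehd2, the ATPase at the neck of caveolae, was 12.5 and 6.93 times higher, at 98.6 and 67.2 CPM, and its relative Ehd4 9.16 and 6.83 times, at 215 and 188 CPM. Nos3, the endothelial nitric oxide synthase that caveolin binds, stood at 58.0 and 70.3 CPM. In mural-like cells 2 of 12 listed genes tested at P1 and 1 of 12 at P7 were at least 4 times higher, where 1.51% and 1.37% of all genes were. At each age 1 was at least 4 times lower, Plvap. Ehd2 was 4.42 times higher at each age, at 36.7 and 42.5 CPM. Flna, the filamin that links Cav1 to actin, was 4.48 times higher at P1 and 3.74 times, under the mark, at P7.

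In the mesenchymes none of the listed genes tested was 4 times higher. With 0.22% and 0.463% of all genes past that mark in the Aldh1a2 class and 0.264% and 0.445% in the Ccn3 class, a count of 0 is near that background. Ehd2 stood at 1.38 and 4.37 CPM in Aldh1a2 mesenchyme-like cells and 0.541 and 1.24 CPM in Ccn3 mesenchyme-like cells. Pacsin3, a membrane-bending protein of caveolae, was at 28.8 and 50.4 CPM in the first and 31.4 and 49.0 CPM in the second. Between the ages, 3 of 9 listed genes tested in Aldh1a2 mesenchyme-like cells were at least 1.5 times higher at P7, where 26.3% of all genes were, namely Pacsin3, Plvap and the membrane scaffold gene Flot1, with a median log2 ratio of 0.12 against 0.17 for all genes. In Ccn3 mesenchyme-like cells 4 of 9 were, against 24.6% of all genes, the same 3 and Ehd1, and Ehd4 was at least 1.5 times lower, with a median of 0.17 against 0.13. In mural-like cells 1 of 10 was higher, Flot1, against 18.6% of all genes, and 2 were lower, Ehd3 and Pacsin2, against 13.4%, with a median of -0.14 against 0.08. Cav3 and Cavin4, the muscle forms, had no UMI in endothelium-like cells.

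Between the ages 1 of 11 listed genes tested in endothelium-like cells was at least 1.5 times higher at P7 and none lower, where 21.3% and 13.7% of all genes were, with a median log2 ratio of 0.13 against 0.10 for all genes. It was Mfsd2a, a lipid transporter that restrains caveolar transcytosis at the blood-brain barrier, from 35.0 to 109 CPM (log2 ratio 1.63). Of 6 genes of vessel barriers and permeability on a second list, 3 were at least 1.5 times higher at P7, Mfsd2a among them, and 1 was lower. Slco1a4, an organic anion carrier, went from 40.0 to 170 CPM (2.09), Slco1c1, a thyroid hormone carrier, from 91.4 to 172 CPM (0.91) and Slc2a1, the glucose carrier, from 505 to 743 CPM (0.56). Abcg2, an efflux pump, went from 365 to 193 CPM (-0.92). Plvap, which is low in barrier vessels, had a log2 ratio of 0.34.

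Lastly, the genes whose levels were most like each member were found over 49 cluster sums of at least 50 cells, among 12589 genes with at least 200 UMIs. For Cav1 these were Cav2 with Pearson's r = 0.925, Rgs16 with 0.907, Cavin2 with 0.877, Magi3 with 0.794 and Aldh1a2 with 0.791. For Cavin2 they were Cav1, Col13a1 with 0.859, Fam174b with 0.837, Magi3 with 0.829 and Flrt2 with 0.823. Cavin1 had Jup with 0.852 and Mfge8 with 0.849, and Cavin3 had Itm2a with 0.789 and Ccdc102a with 0.777. Between members, r was 0.560 for Cav1 and Cavin1 but 0.040 for Cav1 and Cavin3. The sums share libraries, and P1 and P7 of a cluster are not independent, so no p-value is given.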

How the data were processed

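Cochlear duct cells of 1 P1 and 1 P7 library were measured with the 10x Genomics 3′ kit (V3). The authors aligned the reads to rn6 and deposited UMI counts per gene and barcode from Cell Ranger 3.1.0, without normalization, and no step against doublets or free RNA was stated. Quality limits were those that the study states, a gene number above 500 and below 5000, a mitochondrial share below 25% and a minimum of 500 UMIs, which left 90.8% and 86.8% of barcodes, slightly fewer cells at P1 and more at P7 than the study kept. They were clustered in Seurat 5.3.0 (R 4.3.3) after canonical correlation integration, with 2000 variable genes less the 5 members and the other caveolar genes, 10 principal components and a resolution of 0.8. A cluster was named where at least 3 markers of a list were in 10% of its cells and the mean log2 ratio to other cells, with 5 CPM added, was at least 1 and the highest among the lists that had 3 such markers. That rule, the members and all lists were chosen with earlier results of these data known.

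UMIs were summed per class and library in Python 3.11.15 with scipy 1.17.1. Poisson, Clopper-Pearson and conditional binomial intervals at 95% cover counting error only. Where no UMI was counted, the upper limit was set to 3 counts. Differences between classes had 5 CPM added, ratios between ages nothing. Scrublet (scanpy 1.11.5) marked doublets, which were kept. The steps were tested on simulated data. Named were the members, the 2 lists of caveolar and barrier genes, class markers, and the 5 genes most like each member, of which some are left out here. Promoters came from RefSeq GRCr8, which is not the build of the files. Alternatives were other joins of the libraries, resolutions, components, cell limits, scalings, thinning and classes from marker UMIs. The level of 1 marker gene is not reported here.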

Additional observations from a re-analysis of the deposited data

Results flagged for a closer look

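The ratio of Cav1 between the ages differed between classes. In endothelium-like cells its log2 ratio of P7 to P1 was higher than in mural-like cells by 1.18, than in Ccn3 mesenchyme-like cells by 0.64 and than in Aldh1a2 mesenchyme-like cells by 0.30. With 1 library per age these differences between classes were not tested, the ratio in endothelium-like cells came to 0.03 after thinning, and those with the mesenchymes depend on how the mesenchyme is divided.

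Barcodes outside the quality limits, which entered no comparison, held 10490 UMIs of the 5 genes at P1 and 2901 at P7, of which 4180 and 782 were Cav1.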

How the results depend on the processing

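Ratios of P7 to P1 were recomputed under other settings, of which leaving out the small clusters 22, 24 and 25, leaving out the top cell and joining both mesenchymes were chosen after seeing the data. Of 345 values 276 stayed within their counting interval, 54 moved and 15 moved with a change of sign. In endothelium-like cells 66 of 70 stayed, as in mural-like cells, where Cav2 and Cavin2 crossed 0 within their intervals. No paired analysis was possible because each age has 1 library, and leaving out a replicate was not possible for the same reason.

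All values that follow are log2 ratios. In endothelium-like cells thinning gave 0.03 for Cav1 and -0.58 for Cavin2, and the mean over cells 0.15 for Cav2 and 0.00 for Cavin3. In mural-like cells thinning gave 0.86 for Cavin1 and 0.55 for Cavin3, and Cavin2 was 0.82 with classes from marker UMIs and 0.73 without doublets.

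In Aldh1a2 mesenchyme-like cells, libraries merged without integration, which left 18 P1 cells in the class, gave Cav1 1.35, Cav2 1.15, Cavin1 2.45, Cavin2 1.16 and Cavin3 0.01. Each library on its own gave Cav2 0.85, Cavin2 0.24 and Cavin3 0.35. Resolution 0.4 gave Cav1 -0.41, Cavin2 -0.11 and Cavin3 0.73, and 30 components Cav1 0.17 and Cav2 0.97. Classes from marker UMIs gave Cav1 0.45, Cav2 1.28 and Cavin2 -0.52, removal of doublets Cav1 -0.00, and scaling without ribosomal, mitochondrial and haemoglobin genes Cav1 -0.17 and Cavin2 -0.41.

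In Ccn3 mesenchyme-like cells merging gave Cav1 -1.88, Cav2 -1.46, Cavin1 -0.43 and Cavin2 -1.05. Each library on its own gave Cav1 -1.54, Cav2 -0.74, Cavin1 0.03, Cavin2 -1.02 and Cavin3 1.22. Resolution 0.4, at which far fewer cells bore the Ccn3 name, gave -1.48, -1.76, -0.39, 0.08 and 0.23 in the same order. With 30 components Cav1 was -0.33 and Cavin2 -0.52. Classes from marker UMIs gave Cav1 -1.60, Cav2 -0.75, Cavin1 -0.06 and Cavin2 -1.5. The other scaling gave Cav1 -0.51, the mean over cells Cavin1 0.49 and thinning Cavin1 0.59. Without the small clusters Cav1 was -0.14, Cav2 0.74 and Cavin1 0.52.

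With both mesenchymes together merging gave Cav1 -0.58. Each library on its own gave Cav1 -0.91, Cav2 -0.07, Cavin1 0.28 and Cavin2 -0.59. Classes from marker UMIs gave Cav1 -1.30, Cav2 -0.43, Cavin1 0.10 and Cavin2 -1.11. Cav1 was -0.45 without doublets, -0.59 under the other scaling, -0.43 as a mean over cells and -0.41 without the small clusters. Cavin2 was -0.27 under the other scaling and -0.10 without the small clusters, and Cavin1 was 0.60 as a mean over cells. Cavin3 stayed within its interval in every setting run for both mesenchymes together. The cause of these moves was not tested.

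In the 4 classes described, shares of cells with a UMI were higher at 4000 than at 2000 UMIs, in each gene and age. For Cavin2 the order of endothelium-like and Aldh1a2 mesenchyme-like cells turned between these depths. Of the 5 genes most like each member, 4 or 5 remained with a lower count minimum or pseudocount. With 1 library per age, no spread between animals was measured.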
